A study of Rattus norvegicus with 14 samples.

Results

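Cd9, Cd63 and Cd81 encode tetraspanins, and 21 of the 4993 transcription start sites (TSSs) listed for SOX10-bound promoters of the rat carry 1 of these 3 gene symbols. All rows with those symbols were taken, whatever their values: 4 TSSs of Cd9, 15 of Cd63 and 2 of Cd81. The list holds TSSs that were active in sciatic nerve and lie within 1 kb of a peak of H3K4me3, a histone mark of active promoters, that overlaps a peak of the transcription factor SOX10.

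Tetraspanins are small membrane proteins that cross the membrane 4 times and gather integrins, immunoglobulin-family partners and other receptors into membrane domains. CD9 and CD81 are closely related members found mostly at the cell surface, where they bind the partners PTGFRN and IGSF8 and act in adhesion and membrane fusion. CD63 is found mainly in late endosomes and lysosomes, and all 3 proteins are commonly used as markers of extracellular vesicles. Schwann cells, the myelinating glia of peripheral nerve, depend on SOX10 throughout their development.

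Transcript 5′ ends were measured by Tn5Prime, which tags the 5′ end of each cDNA, in 14 libraries of 5 groups. The 2 nerve libraries came from independent sciatic nerves of wild-type adult rats aged 6 to 9 months, and hold RNA of every cell type in the nerve. Primary rat Schwann cells in 5% FBS were given vehicle (control, 3 libraries) or 250 uM CPT-cAMP, a cell-permeable cyclic AMP analogue (cAMP, 3 libraries). Per the labels, daily medium changes ran over 4 days in control and 3 days in CPT-cAMP medium. The study's methods describe the same schedule for both groups. If the labels hold, this difference cannot be told apart from the treatment. S16 cells, an immortalized rat Schwann cell line grown in 10% FBS, gave 2 libraries of the unedited parental line and 4 of ΔSOX10 clones. Each ΔSOX10 clone is a separate line with CRISPR-made frameshift alleles of Sox10, and the clones came from 2 guide RNAs. Values are RPM, the reads at each TSS scaled to a fixed library total. Because RPM counts 5′ ends, it does not scale with transcript length, and levels of different genes are given on this scale. By the study's methods the primary cell libraries came from separate cell populations, and the parental libraries from separate RNA samples of 1 line, so the parental spread may be technical.

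The libraries held 29895599 to 79940274 reads, of which 28.7% to 37% fell on the listed TSSs, and 3 reads, used as the detection floor, were worth 0.0375 to 0.1 RPM. Sox10, the targeted gene, had 90.7 and 77.5 RPM in the parental libraries and 0.0255, 0.0254, 0 and 0.114 RPM in the clones (0 to 4 reads). Nerve and S16 libraries were sequenced on another instrument model than the primary cells, so instrument and cells cannot be told apart in comparisons between those models. Schwann cell markers, 8 of 10 of which were listed, summed to 72487 to 73525 RPM in nerve, 5949 to 6154 in control, 10558 to 12230 in cAMP, 10161 to 10318 in parental and 146 to 400.3 in ΔSOX10 libraries.

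The TSS of each gene with the highest mean in nerve is called its leading TSS here. It was far above the others for Cd9 and Cd81, and for Cd63 it had 50.04 RPM against 28.2 RPM at the next. Positions are in rn5 as the table lists them. The leading TSS of Cd9 was at chr4:225022560-225022654 on the minus strand, inside the SOX10 peak at chr4:225022400-225022799. That of Cd81 was at chr1:223099277-223099360 on the plus strand, inside the SOX10 peak at chr1:223099200-223099399. That of Cd63 was at chr7:3303390-3303446 on the plus strand, inside the SOX10 peak at chr7:3303000-3303799. All 3 also lay inside their H3K4me3 peaks, whereas 2580 of all 4993 listed TSSs (51.7%) and 7 of the 21 described here overlapped their SOX10 peak. Exon and intron annotation in rn5 was not analysed here.

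The RefSeq promoters of the 3 genes in assembly GRCr8 are shown because each is the sequence just upstream of the gene whose leading TSS lies in a SOX10 peak. Each line gives the 150 bases before the RefSeq start, 5′ to 3′, with CG dinucleotides in capitals. The GRCr8 positions were not transferred to rn5. They are chr4:159975359-159975508 on the minus strand for Cd9, chr7:1921994-1922143 on the plus strand for Cd63 and chr1:207665147-207665296 on the plus strand for Cd81.
Cd9: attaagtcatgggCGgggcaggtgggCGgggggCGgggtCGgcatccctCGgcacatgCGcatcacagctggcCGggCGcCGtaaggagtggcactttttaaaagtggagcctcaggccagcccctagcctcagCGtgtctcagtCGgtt
Cd63: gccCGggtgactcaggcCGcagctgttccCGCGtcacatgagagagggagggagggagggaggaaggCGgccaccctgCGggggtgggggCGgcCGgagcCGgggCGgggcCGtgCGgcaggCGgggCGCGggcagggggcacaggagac
Cd81: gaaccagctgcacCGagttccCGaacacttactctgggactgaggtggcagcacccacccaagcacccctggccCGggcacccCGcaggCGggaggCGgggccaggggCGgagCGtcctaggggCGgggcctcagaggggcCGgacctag

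These stretches held 11 (Cd9), 15 (Cd63) and 10 (Cd81) CG dinucleotides, against a median of 4 over 33469 rat promoters. Their G and C content was 64.7%, 78.7% and 72.7%, against a median of 52.7%. Over the 300 bases from 250 before to 50 after each start, none of the 3 held any of the 8 SOX words matching WWCAAWG, where W is A or T, on either strand, which 25.5% of all promoters did. The cyclic AMP response word TGACGTCA, found in 1.83% of promoters, was also not in these windows. Only exact words were searched, whereas the study's own search under SOX10 peaks allowed a mismatch. The sequence of the SOX10 peaks in rn5 was not searched here, so SOX sites elsewhere in them were not assessed. TATAAA, searched on both strands and found in 14.2% of promoters, was present in the window of Cd81 alone, at bases 6 to 11 after the RefSeq start. It is shown in capitals in the 30 bases at chr1:207665290-207665319 of GRCr8.
Cd81: gacctagcggtcTATAAAgagtgaagagct

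Cd9 and Cd81, which are close relatives, changed places between the models. At its leading TSS Cd9 had 2837 and 2414 RPM in the nerve libraries, and 58.4, 67.9 and 67 RPM in the control Schwann cells. It reached 566, 526 and 528 RPM with cAMP, 1160 and 1050 RPM in the parental S16 cells, and 711, 351, 373 and 699 RPM in ΔSOX10 clones 1-1, 1-2, 2-1 and 2-2. Cd9 was thus highest in nerve and lowest in control cells, with no overlap between either of these groups and any other. Cd81 had 983 and 935 RPM in nerve, 2560, 2372 and 2456 RPM in control and 1445, 1360 and 1505 RPM in cAMP libraries. It had 1040 and 950 RPM in parental libraries, and 0.866, 0.483, 0.383 and 0.456 RPM in the 4 clones, which is 14 to 34 reads each. Cd81 was highest in the control cells, where Cd9 was lowest, and under 1 RPM in the clones, where Cd9 had at least 351 RPM in every library. Cd63 had 59.1 and 40.9 RPM in nerve, 184, 151 and 150.1 in control, 129, 99.5 and 98.5 in cAMP, 170 and 160.1 in parental and 140, 79.6, 124 and 130.1 in ΔSOX10 libraries. Its group means stayed within a range of 50.04 to 165 RPM, narrower than that of the other genes.

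**Figure D1:**
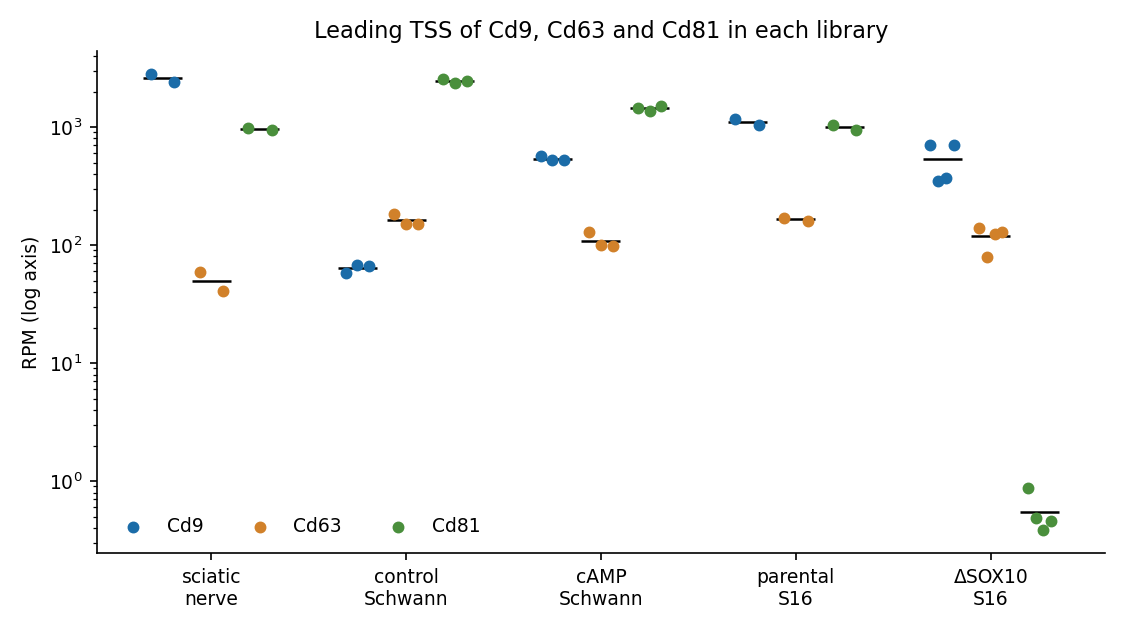
RPM at the leading TSS of Cd9 (blue), Cd63 (orange) and Cd81 (green) in each of the 14 libraries by group, on a log axis, with 1 point per library and a black line at the group mean. Cd9 averaged 64.4 RPM in control cells, and Cd81 lay under 1 RPM in the 4 ΔSOX10 clones.

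Summed over all their TSSs, the 3 genes together had 3513 to 3976 RPM in nerve, 2743 to 2973 in control, 2150 to 2278 in cAMP, 2286 to 2468 in parental and 506 to 957 in ΔSOX10 libraries. Cd9 made up 70.4% ± 1.66 (SD, n = 2) of that sum in nerve, 2.27% ± 0.271 (n = 3) in control, 24.3% ± 0.805 (n = 3) in cAMP, 46.7% ± 0.758 (n = 2) in parental and 71.3% ± 3.84 (n = 4) in ΔSOX10 libraries. The share of Cd81 ran from 86.6% ± 0.294 in control cells to 0.0758% ± 0.0223 in the clones. Cd63 was 3.9% ± 0.288 of the sum in nerve, 11.1% ± 0.509 in control, 11.2% ± 1.13 in cAMP and 11.3% ± 1.05 in parental libraries, and 28.7% ± 3.84 in the clones. Cd9 was thus the majority of these reads in nerve and in the clones, and Cd81 in control and cAMP cells.

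**Figure D2:**
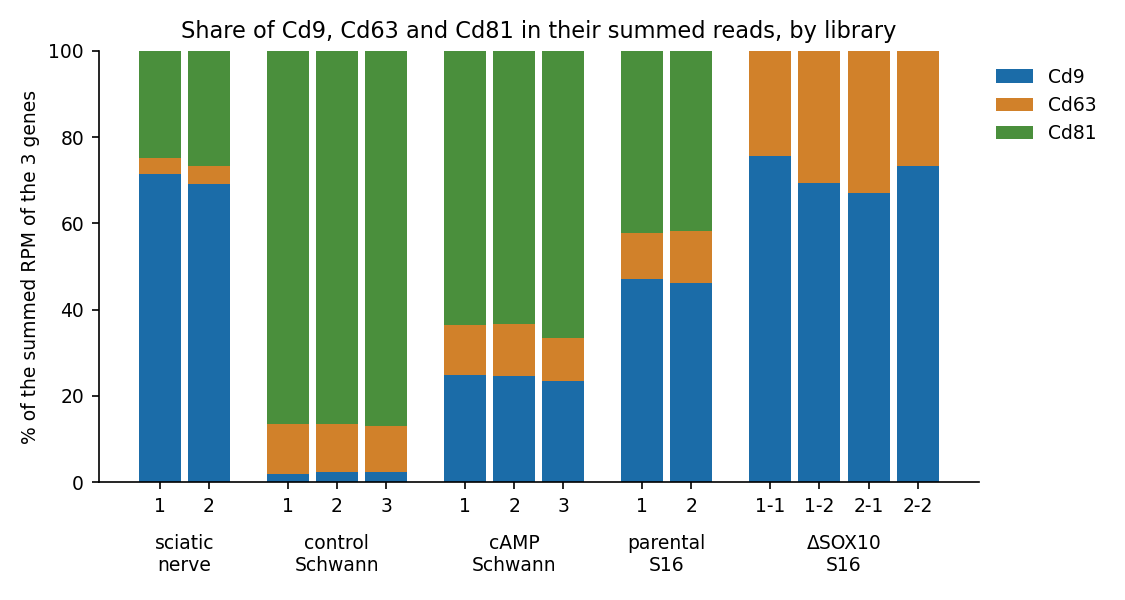
Percent of the summed RPM of the 3 genes that came from Cd9, Cd63 and Cd81, as 1 stacked bar per library, with the library's replicate or clone number under it. Cd81 filled 86.4% to 87% of the control bars and 63.3% to 66.6% of the cAMP bars.

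Levels in the groups were compared in a single limma model of log2(RPM + 1) over the 14 libraries, with 5 contrasts between the models. Of all 4810 TSSs tested, 58.7% passed the adjusted p threshold of 0.05 between nerve and control cells, 49.4% between nerve and parental cells and 20.6% between control and parental cells. Against that background, Cd9 was 5.33 higher in nerve than in control cells on the log2 scale (SE 0.264, limma adjusted p = 2.64e-09). It was 1.24 higher in nerve than in parental S16 cells (SE 0.289, adjusted p = 0.00256). Cd9 in parental cells was in turn above cAMP-treated cells, the difference of cAMP minus parental being -1.03 (SE 0.264, adjusted p = 0.0135, 19.7% of TSSs called), but that call was lost without parental library 1 (adjusted p = 0.0996) or 2 (0.0647). The cAMP and ΔSOX10 libraries were neighbours in the order of Cd9 levels, and the cAMP range lay inside that of the clones.

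Cd81 in nerve did not differ beyond the error from parental S16 cells, with a log2 difference of -0.05 (SE 0.15, adjusted p = 0.797). After median-ratio scaling it was 0.74 higher in nerve and called (adjusted p = 0.000672), where the median of all TSSs was also 0.74, and after TMM scaling it was 0.35 higher and not called (adjusted p = 0.0562). Control cells were 1.31 above parental cells (SE 0.137, adjusted p = 2.25e-05), and cAMP cells 0.53 above them (SE 0.137, adjusted p = 0.0139). The last of these calls was lost without cAMP library 3 (adjusted p = 0.0511), parental library 1 (0.0539) or parental library 2 (0.131), and after median-ratio scaling (0.34, adjusted p = 0.0906), after TMM scaling (0.32, 0.109) or with a pseudocount of 0.1 (0.122). Between nerve and cAMP cells (54.3% of TSSs called), Cd81 was 0.58 lower in nerve by RPM (log2 difference -0.58, SE 0.137, adjusted p = 0.00249), but 0.40 higher after median-ratio scaling (adjusted p = 0.0201). That scaling moved the median of all TSSs between nerve and cAMP cells from -0.29 to 0.57. Relative to the median of all TSSs, Cd81 was therefore lower in nerve by either scale.

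Cd63 had its highest levels in parental and control cells, which lay within 0.03 of each other on the log2 scale (difference -0.03, SE 0.233, adjusted p = 1). Nerve was lowest, with log2 differences of -1.69 from control (SE 0.233, adjusted p = 2.89e-05), -1.73 from parental (SE 0.256, adjusted p = 7.17e-05) and -1.12 from cAMP cells (SE 0.233, adjusted p = 0.00107). After median-ratio scaling the last of these was -0.15 and not called (adjusted p = 0.565), while those from control (-0.70, adjusted p = 0.0109) and parental cells (-0.95, 0.00305) were smaller but still called. The median of all TSSs in nerve minus cAMP was -0.29 by RPM and 0.57 after that scaling. Relative to this median, Cd63 was lower in nerve than in cAMP cells by either scale. In between, the cAMP and ΔSOX10 ranges overlapped. In nerve, which is a tissue, fewer cells of a type and less RNA per cell cannot be told apart. Of genes taken as markers of other cells in the nerve, 2 of 8 fibroblast genes were listed, with summed levels of 134 to 138 RPM in nerve, 803 to 909 in control, 370 to 466 in cAMP, 2255 to 2829 in parental and 2971 to 5302 in ΔSOX10 libraries. Nearly all of that sum was Col1a1, with 130 and 135 RPM in nerve. Pdgfra went the other way, with 3.71 and 2.5 RPM in nerve and 0 in control libraries. The sum was lower in nerve than in any cultured group, so it is not particular to other cells of the nerve. The single listed gene of 6 taken as pericyte markers, Pdgfrb, had 30.6 to 54.8 RPM in nerve and 0.779 to 1.91 in control. The single listed gene of 4 taken as perineurial markers, Itgb4, had 51.1 to 51.5 and 0.0458 to 2.87 RPM. Both were also found in cAMP-treated Schwann cells, at 22.4 to 29.6 and 3.53 to 5.09 RPM, so neither is particular to nerve. Csf1r, the listed macrophage gene of 7, had 1.07 to 4.82 RPM in nerve and 0 in control cells, and none of 6 endothelial markers was listed. Their part in the levels of the 3 genes was not tested.

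The first treatment comparison asks how SOX10-bound promoters respond when primary Schwann cells are driven towards differentiation with cAMP. Cd9 rose and Cd81 and Cd63 fell at their leading TSSs. Of the 21 TSSs, 18 passed the filter of more than 1 RPM in at least 2 of the 6 libraries and were tested, 1 was higher, 2 were lower and 15 were not called. Over all 4119 TSSs tested, 12.9% were higher and 11% lower, so the members' shares are near the background. The 3 untested TSSs were those of Cd9 at 72 bp downstream and 78 bp upstream of the leading TSS, and that of Cd63 at 312 bp upstream.

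Cd9, whose product is a surface tetraspanin of Schwann cells, rose from 64.4 ± 5.27 RPM (SD, n = 3) to 540 ± 22.5 RPM (n = 3), 8.38-fold on the scale of the means. On the log2(RPM + 1) scale the change was 3.05 (SE 0.111, limma adjusted p = 2.56e-15). By size it was number 66 of the 530 TSSs that rose. All 3 cAMP libraries lay above all 3 control libraries, and even with this rise Cd9 was 2.28 below nerve on the log2 scale (SE 0.264, adjusted p = 7.02e-06).

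Cd81, the closest relative of Cd9 among the 3 genes, fell from 2463 ± 93.8 to 1437 ± 72.9 RPM, 1.71-fold on the scale of the means. The log2 change was -0.78 (SE 0.0566, adjusted p = 5.56e-10). It was number 280 by size among the 452 TSSs that fell. Cd63, the endosomal and lysosomal member, fell from 162 ± 19.4 to 109 ± 17 RPM at its leading TSS, with a log2 change of -0.57 (SE 0.139, adjusted p = 0.00377). Neither gene's groups overlapped. The call of Cd63 was lost in the model of all 14 libraries (adjusted p = 0.0671), and held without each of the 6 libraries in turn. Summed over its TSSs Cd63 went from 316 ± 26.4 to 249 ± 21 RPM, a smaller log2 change of -0.34 (SE 0.101, adjusted p = 0.0121).

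Groups did not overlap at 6 of the 18 tested TSSs, and at 36.6% of all tested TSSs. Besides the 3 leading TSSs these were Cd63 TSSs at 1016, 1302 and 1722 bp downstream, none of which passed the test. The summed fibroblast markers, nearly all Col1a1, and the summed Schwann cell markers, both given above, did not overlap between control and cAMP libraries either. The first sum was lower and the second higher with cAMP. Within the Schwann cell list not every gene followed the sum: Ngfr had 2583 to 2694 RPM in control and 746 to 877 RPM in cAMP libraries, and S100b 1811.8 to 1919 and 1534 to 1649 RPM. Pdgfrb, at 22.4 to 29.6 RPM with cAMP, and Itgb4, at 3.53 to 5.09 RPM, lay above their control ranges given above. The part of these markers in the changes of the 3 genes was not tested.

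The second comparison asks which SOX10-bound promoters need SOX10 in S16 cells. Cd81 lost nearly all its 5′ ends in the ΔSOX10 clones, while Cd9 and Cd63 kept theirs at lower mean levels that did not pass the test. Of the 21 TSSs, 20 were tested and 2 were called, both of Cd81 and both lower. Both passed the filter through the parental libraries alone, so their direction was set by it and nothing is drawn from the count. Over all 3875 TSSs tested, 6.55% were lower and 1.65% higher. The untested TSS was that of Cd63 at 312 bp upstream. The median log2 change of all tested TSSs was -0.18, and -0.05 after either median-ratio or TMM scaling.

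At its leading TSS Cd81 fell from 995 ± 63.6 RPM (n = 2) to 0.547 ± 0.217 RPM (n = 4), a ratio of the means of 1819. On the log2(RPM + 1) scale the change was -9.34 (SE 0.306, limma adjusted p = 1.06e-06), and only 1 of the 254 TSSs that fell had a change of larger size on that scale. Every clone was low: the highest, clone 1-1, had 34 reads there, against 36649 and 46007 reads in the parental libraries. The other Cd81 TSS, 110 bp downstream, had 3.44 and 7.39 RPM in parental cells and no read in any clone, which makes it at least 67.6-fold lower against a floor of 3 reads per library (log2 change -2.61 on the log2(RPM + 1) scale, SE 0.396, adjusted p = 0.00356). Both Cd81 TSSs were above 1 RPM in the parental libraries alone, so the direction of these changes was set by the filter. Nothing is drawn from the call at the downstream TSS. Without either parental library only 1 library of the comparison is above 1 RPM at the downstream or leading Cd81 TSS, so neither passed the filter and no value was obtained.

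Cd9 stood at 1105 ± 77.8 RPM in parental cells and 534 ± 198 RPM in the clones, a ratio of 2.07. All 4 clones lay below both parental libraries, and clones 1-2 and 2-1 were the lower pair. The log2 change was -1.13 (SE 0.317, 95% interval -1.85 to -0.40), and the adjusted p of 0.0675 missed the threshold. Of 17 alternatives 7 passed it and 10 did not, with adjusted p from 0.00118 to 0.178. The call was gained without clone 1-1 (adjusted p = 0.0393) or clone 2-2 (0.0383), and with the 4 Cd9 TSSs summed (0.0414). All 4 Cd9 TSSs had negative log2 changes, from -1.16 to -0.66, and none was called. The TSS at 72 bp downstream passed the filter through the parental libraries alone (1.29 and 1.17 RPM, no read in any clone). Its direction was therefore set by the filter. The TSSs at 80 bp downstream and 78 bp upstream were low, with parental means of 2.43 and 0.962 RPM.

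Cd63 had 165 ± 7.13 RPM in parental cells and 118 ± 26.6 RPM in the clones at its leading TSS. Here too the 4 clones lay below both parental libraries, but the log2 change of -0.51 (SE 0.244, 95% interval -1.06 to 0.05) had an adjusted p of 0.302. Groups did not overlap at 9 of the 20 tested TSSs, all lower in the clones, against 21.7% of all TSSs in that direction. They included the leading TSSs of all 3 genes. The other 6 were the downstream TSS of Cd81, the Cd9 TSSs at 72 and 80 bp, and the Cd63 TSSs at 984, 1016 and 1302 bp. Both Cd81 TSSs and the Cd9 TSS at 72 bp were above 1 RPM in the parental libraries alone. Their lack of overlap was therefore set by the filter, and nothing is drawn from the count.

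**Figure D3:**
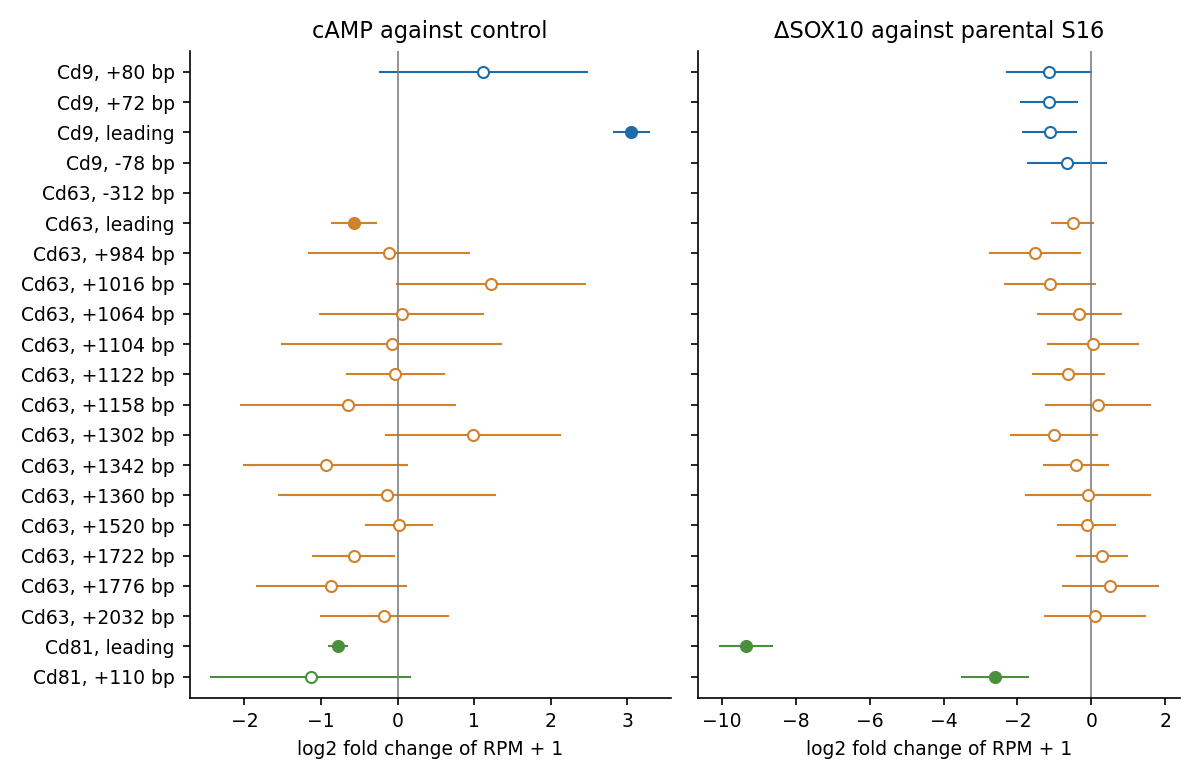
Log2 fold change of RPM + 1 of each tested TSS of the 3 genes, cAMP against control on the left and ΔSOX10 against parental S16 on the right, with 95% limma intervals and TSSs named by their distance from the leading one. Filled points passed the adjusted p threshold of 0.05: 3 leading TSSs on the left, and both Cd81 TSSs on the right.

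How each gene divided its reads among its TSSs differed. The leading TSS held 99.5% ± 0.318 (n = 2) of the reads of Cd9 in nerve, and at least 99.3% in every library. For Cd81 it held at least 99.2% in every library. The minor TSSs of these genes were thus all but absent: that of Cd81 had at most 8.72 RPM, and those of Cd9 at most 8.99, 5.34 and 2.27 RPM at 80 and 72 bp downstream and 78 bp upstream.

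Cd63 was spread more widely. Its 15 listed TSSs spanned chr7:3303106-3305488, and 13 of the 2993 genes had as many or more. Of its 14 minor TSSs, 1 lay 312 bp upstream of the leading TSS and 13 lay 984 to 2032 bp downstream, all 13 outside the SOX10 peak. The leading TSS held 34.3% ± 8.37 of its reads in nerve, 51.1% ± 1.83 in control, 43.6% ± 5.57 in cAMP, 62% ± 5.09 in parental and 57.6% ± 7.9 in ΔSOX10 libraries. The ranges of the cAMP and control libraries, 38% to 49.2% and 49.7% to 53.2%, did not overlap, while those of the parental and ΔSOX10 libraries did.

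The largest minor TSS of Cd63, at chr7:3304901-3304975 and 1520 bp downstream, had 24.7 and 31.8 RPM in nerve, 63.4, 37.8 and 54.7 in control and 48.2, 61 and 46.8 in cAMP libraries. In S16 cells it had 26.8 and 40.5 RPM in the parental line and 29.9, 30.05, 20.2 and 44.6 in the clones. In neither comparison was it called: the log2 changes were 0.02 (SE 0.208, adjusted p = 0.961) with cAMP and -0.13 (SE 0.337, adjusted p = 0.871) in the clones. The TSS at 1722 bp had 27, 31.4 and 28.4 RPM in control and 17.3, 19.8 and 20.4 RPM in cAMP cells, without overlap, but a log2 change of -0.57 (SE 0.255) did not pass the test (adjusted p = 0.117). At 1122 bp the group means ran from 10.7 RPM in nerve to 20.2 RPM in parental cells, and neither comparison was called (adjusted p = 0.964 and 0.486). The 11 other minor TSSs had group means of at most 13.4 RPM. Over all 13 minor TSSs tested, log2 changes ran from -0.94 to 1.22 with cAMP, 9 of them below 0, and from -1.52 to 0.51 in the clones, 8 of them below 0.

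**Figure D4:**
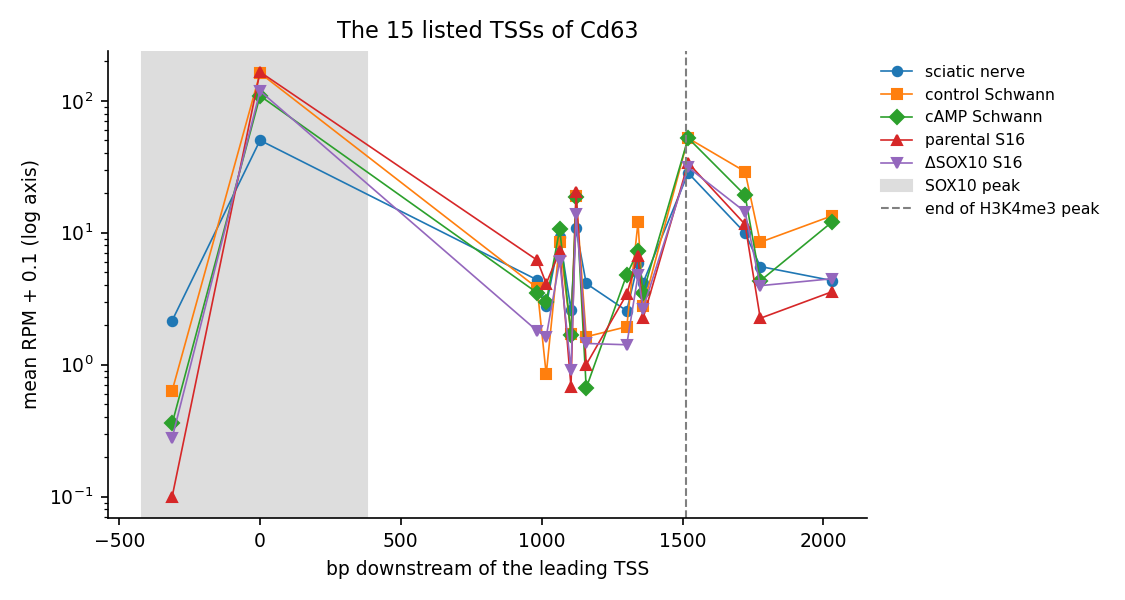
Mean RPM (plus 0.1, on a log axis) of the 15 listed TSSs of Cd63 in each of the 5 groups, by distance in bp downstream of the leading TSS, with the SOX10 peak shaded and the end of the H3K4me3 peak dashed. The leading TSS at 0 was the highest in every group, and the TSS at 1520 bp was second.

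Whether a gene's TSSs changed unequally was tested with limma's diffSplice and a Simes p per gene. In ΔSOX10 against parental cells Cd81 passed (adjusted p = 3.55e-08, 2 TSSs), against 5.04% of the 417 genes tested, with the leading TSS falling further than the other. On this log2(RPM + 1) scale the minor TSS, which went to 0 from a low level, cannot fall as far. With cAMP Cd9 was just past the threshold (adjusted p = 0.0471, 2 TSSs, against 9.57% of 460 genes), and lost the call with a pseudocount of 0.1 (adjusted p = 0.981) or without control library 1 (0.151), 2 (0.134) or 3 (0.11). On the log2(RPM + 1) scale the leading Cd9 TSS rose further than the other, by 1.93. That other TSS, 80 bp downstream, had no read in control cells and 2.71, 1.77 and 0 RPM with cAMP. It passed the filter through cAMP libraries alone, and at so low a level it cannot rise as far on this scale. On the scale of the means it was at least 28.6-fold higher, against 8.38-fold at the leading TSS. Cd63 did not pass in either comparison (adjusted p = 0.389 and 0.748, 14 TSSs).

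Other tetraspanins in the list were few: Tspan6, Tspan15, Tspan31 and Rom1, so that 7 of 32 family genes were listed and 6 were tested at their leading TSS. The median log2 change of those 6, which include Cd9, Cd63 and Cd81, was -0.25 with cAMP and -0.69 in the clones, beside -0.03 and -0.17 over all genes. Over the 3 other tested tetraspanins it was 0.08 and -0.30. Tspan15, which regulates the sheddase ADAM10, rose with cAMP from 21.9 ± 9.39 to 68.6 ± 14.9 RPM (log2 change 1.65, SE 0.259, adjusted p = 4.41e-05), while 13.5% of all genes rose and 13.9% fell at their leading TSS. Tspan31 fell from 217 ± 18.8 to 133 ± 24.5 RPM (log2 change -0.71, SE 0.132, adjusted p = 0.000303). Tspan6 stood at 83.3 ± 4.02 RPM without and 89 ± 17.1 RPM with cAMP (adjusted p = 0.79). In the S16 comparison none of these 3 was called, with log2 changes of -0.86 for Tspan15, -0.30 for Tspan6 and 0.19 for Tspan31, so Cd81 was the called tetraspanin of the 6, where 5.5% of all genes fell and 1.99% rose. Rom1, a photoreceptor tetraspanin, had 5.86 RPM in nerve library 2, 1.37 RPM in clone 1-2 and 0 in the 12 others.

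Partners of the tetraspanins were taken next, at 1 TSS per gene. Over all genes 13.5% rose and 13.9% fell with cAMP, and 1.99% rose and 5.5% fell in the clones. Of 36 partner genes 8 were listed; with cAMP 1 of 7 rose, 2 fell and 4 were not called (median log2 change -0.06). Cd44, the hyaluronan receptor, rose from 109 ± 5.03 to 187 ± 23.9 RPM (log2 change 0.76, adjusted p = 9.5e-05), a call lost in the model of all 14 libraries (0.0708). Igsf8, the partner shared by CD9 and CD81, fell from 46 ± 11.1 to 25 ± 2.74 RPM (log2 change -0.84, adjusted p = 0.0107), a call that was lost in that model (0.0556) and without control library 1 (0.0907) or cAMP library 1 (0.0515). In the clones 1 of 5 fell and 4 were not called: Itga6, a laminin receptor subunit, went from 20.4 ± 2.98 to 1.71 ± 1.15 RPM (log2 change -3.05, adjusted p = 0.00336).

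Genes of extracellular vesicles and multivesicular bodies, the compartment CD63 marks, were listed for 15 of 34. With cAMP 1 rose, 7 fell and 7 were not called, with a median log2 change of -0.32. That is 46.7% lower, where 13.9% of all genes fell and 13.5% rose with cAMP, and 5.5% fell and 1.99% rose in the clones. Several of the genes that fell were already named by the study as lower with cAMP, from these same libraries. The list was chosen with earlier results known, so nothing is drawn from this share. The largest fall was that of Stam, an endosomal sorting gene, from 21.3 ± 5.72 to 9.54 ± 5.31 RPM (log2 change -1.17, adjusted p = 0.0291). The gene that rose, Anxa2, went from 852 ± 10.8 to 982 ± 48.5 RPM (log2 change 0.20, adjusted p = 0.0273). Both calls were lost without control library 1 (0.149 for Stam, 0.0831 for Anxa2), control library 3 (0.0752 and 0.0855) or cAMP library 3 (0.107 and 0.098), that of Stam also without cAMP library 2 (0.151) and that of Anxa2 without control library 2 (0.058), with edgeR's exact test (0.146) and in the model of all 14 libraries (0.517). The call of Stam was also lost with edgeR's quasi-likelihood (0.0797) and exact tests (0.0584), with no filter (0.0813) and with a pseudocount of 0.1 (0.051). In the clones 1 of 15 fell, Anxa5, from 681 ± 90.5 to 249 ± 48 RPM (log2 change -1.46, adjusted p = 0.00319), and 14 were not called.

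Lysosome genes were listed for 10 of 33, of which 1 rose, 2 fell and 7 were not called with cAMP (median log2 change 0.09). Beside these, 13.5% of all genes rose and 13.9% fell with cAMP, and 1.99% rose and 5.5% fell in the clones. Npc2, a lysosomal cholesterol carrier, fell from 536 ± 14.2 to 329 ± 4.67 RPM (log2 change -0.70, adjusted p = 6.67e-07). Asah1, acid ceramidase, rose from 132 ± 11.2 to 176 ± 30.5 RPM (log2 change 0.41, adjusted p = 0.0308), a call lost without control library 1 (0.113), control library 3 (0.11), cAMP library 1 (0.175) or cAMP library 3 (0.105), and in the model of all 14 libraries (0.336), with edgeR's quasi-likelihood test (0.0524) or with no filter (0.0713). In the clones 1 of 10 fell, Laptm4b, from 211 ± 7.07 to 88.2 ± 9.47 RPM (log2 change -1.25, adjusted p = 0.00253), and without parental library 2 it was not called (0.052).

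Myelin genes were listed for 16 of 22. The shares over all genes were 13.5% higher and 13.9% lower with cAMP, and 1.99% higher and 5.5% lower in the clones. With cAMP 11 of 15 tested rose, as Cd9 did, 1 fell and 3 were not called (median log2 change 2.63), with the largest rise for Mal, a proteolipid of myelin, from 0.122 ± 0.0896 to 371 ± 66.3 RPM (log2 change 8.36, adjusted p = 1.12e-15). Cnp, the gene that fell, went from 491 ± 36 to 397 ± 21.6 RPM (log2 change -0.30, adjusted p = 0.0117), and its call was lost without control library 3 (0.0853) or cAMP library 2 (0.064) and in the model of all 14 libraries (0.17), and its sign turned with its TSSs summed (log2 change 0.048). In the clones 10 of 13 fell and 3 were not called (median log2 change -5.14). The list holds Sox10 itself, the targeted gene, which is counted among those 10. Many of these genes were also named by the study from the same libraries, so nothing is drawn from these shares.

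The genes whose leading TSSs were most like each member were found by the Pearson correlation of log2(RPM + 1) over the 14 libraries, among 2450 other genes with a mean of at least 5 RPM. These libraries fall into 5 groups and share scaling within each, so the values are descriptions. For Cd81 the first was Sox10 itself (r = 0.994), followed by Cmtm5 (r = 0.985) and Il25 (r = 0.985), all with means under 0.05 RPM in the clones. Sox10 was disrupted in the clones by design, and a level near 0 there raises r for any such gene. Outside the clones Cmtm5 was highest in nerve (359 RPM) and Il25 in cAMP cells (112 RPM). Sox10 was highest in control cells (142 RPM), as Cd81 was. The listed TSSs of Cmtm5 and Il25 lie side by side on chromosome 15. For Cd9 they were Paqr6 (r = 0.952), Cfap100 (r = 0.918) and Sat1 (r = 0.827), each highest in nerve and lowest in control cells. For Cd63 they were Rab7a, a late endosome GTPase (r = 0.947), Azin1 (r = 0.945) and Ywhaz (r = 0.945), all lowest in nerve. Between the members themselves r was -0.14 for Cd9 and Cd81, -0.60 for Cd9 and Cd63 and 0.03 for Cd63 and Cd81.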

How the data were processed

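The 14 Tn5Prime libraries of rat nerve, S16 cells and cultured primary cells were analysed from 1 deposited table. Per the study's methods and the submitters' processing notes, the authors trimmed reads with cutadapt 1.14, mapped them with STAR 2.5.2a to the rat genome (rn5), processed them with SAMtools 1.9, clustered read starts with Paraclu and counted them with featureCounts (Subread 1.6.1). The authors deposited RPM (reads scaled to a fixed library total) per TSS and library, which is the unit used here. No molecular identifiers are named, so PCR copies count as reads, and the floor of 3 reads covers counting error only. The limma SEs and intervals come from the spread between libraries within groups. The deposited log2 fold changes and FDR p-values of the authors' edgeR 3.24.3 comparisons were not used. Positions are printed as the table gives them.

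RPM steps gave whole reads (within 0.1 of a read) for 93.2% to 100% of the values of a library. In 4 S16 libraries 8.59% to 9.35% of values were rounded to 3 digits, so their recovered reads are approximate. Both comparisons used limma 3.58.1 in R 4.3.3 on log2(RPM + 1) with a trended prior, each over its own 6 libraries without covariates. TSSs above 1 RPM in at least 2 of those libraries were tested, p-values were Benjamini-Hochberg adjusted over all of them, and the threshold was 0.05. The scale understates changes of low TSSs. Levels across groups came from 1 limma model of 14 libraries. Fits were checked on simulated data. edgeR 4.0.16 and DESeq2 1.42.0 on the recovered reads, other scalings, filters and pseudocounts, summed TSSs, a replicate block and leaving out each library were alternatives.

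The members, the gene lists and the motifs were chosen with earlier results of these data known. Named are all TSSs of the 3 genes, every listed tetraspanin, the called gene with the largest rise and fall in each other list and comparison, Sox10, and the 3 genes most like each member. One gene that this rule names is not reported here. Minor Cd63 TSSs were described one by one where a group mean reached at least 15 RPM, a limit set after the values were seen. Promoter sequences are those of RefSeq for GRCr8, and all 3 genes matched by symbol.

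Replicate numbers are shared by control and cAMP libraries, but the deviations of same-numbered libraries from their group means correlated by only 0.03, 0.01 and 0.04, so the numbers were not taken as pairs.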

Additional observations from a re-analysis of the deposited data

Results flagged for a closer look

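Among 24 sets of ΔSOX10 values (21 TSSs and 3 gene sums), 1 had a library far from the others by Dixon's ratio, where chance flags about 1 in 20. At the Cd9 TSS 78 bp upstream of the leading one, clone 2-2 had 1.37 RPM and the 3 other clones had 0, a ratio of 1, the highest that this measure can take.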

How the results depend on the processing

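The leading TSSs of Cd9 and Cd81 with cAMP and of Cd81 in the clones kept direction and call under every alternative that gave a value. The Cd63 call with cAMP was lost in the model of all 14 libraries (log2 change -0.57, adjusted p = 0.0671), where 288 TSSs in place of 452 were lower. Leaving out 1 library gave 409 to 465 TSSs higher and 340 to 390 lower with cAMP. For Cd9 in S16 cells the call was gained with edgeR's exact test (-0.92, adjusted p = 0.0165), DESeq2 (-0.92, 0.00504), a mean of at least 5 RPM (-1.13, 0.0417), the model of all 14 libraries (-1.13, 0.00118) and summed TSSs (-1.13, 0.0414), with log2 changes of -1.29 to -0.95 when 1 library was left out. TSSs higher in the clones numbered 64, but 112 with edgeR's exact test and 164 with DESeq2, and TSSs lower numbered 254, but 166 with the mean filter and 165 with TSSs summed. Without 1 library these counts ran from 28 to 55 and from 71 to 265, the lowest lower counts (71 and 74) being those without parental library 1 and 2. The cause was not tested. TSS use within Cd9 with cAMP had an adjusted p of 0.981 with a pseudocount of 0.1, and of 0.00927 to 0.151 without 1 library.

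Among the named results signs turned for Cd81 between nerve and cAMP or parental cells, for Cnp, and for values that were not called. Cd81 in nerve minus cAMP was 0.40 after median-ratio scaling (adjusted p = 0.0201) and 0.030 after TMM scaling, and nerve minus parental 0.74 (adjusted p = 0.000672, past the threshold) and 0.35 (0.0562). The median of all TSSs in nerve minus parental was 0.05 by RPM, 0.74 after median-ratio and 0.39 after TMM scaling. Without 1 library, Cd81 in nerve minus parental ran from -0.12 to 0.014, Cd63 in control minus parental from -0.13 to 0.017, the Cd63 TSS at 1122 bp with cAMP from -0.19 to 0.18, that at 1520 bp from -0.19 to 0.18 with cAMP and from -0.42 to 0.16 in the clones, and Tspan6 with cAMP was -0.071 without cAMP library 1. The Cd63 TSS at 1520 bp in the clones was also 0.031 with edgeR's quasi-likelihood and exact tests, 0.032 with DESeq2, 0.014 after median-ratio and 0.016 after TMM scaling. Cnp with cAMP was 0.048 with TSSs summed.

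With the replicate block, 553 TSSs were higher and 467 lower with cAMP, and Cd9 (3.05), Cd81 (-0.78) and Cd63 (-0.57) kept their calls. The numbers did not pair the samples. ΔSOX10 clones share no number with parental libraries. With 14 to 34 reads per clone at Cd81, depth limits the size of its fold change more than its direction.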

Other observations

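The 4 ΔSOX10 clones differed more in Cd9 than the 3 control or 3 cAMP libraries did. Clones 1-1 and 2-2 had 711 and 699 RPM at the leading TSS, and clones 1-2 and 2-1 had 351 and 373 RPM, so that the pairs did not follow the first digit of the clone's label. The summed 3 genes, which include Cd9, had 942 and 957 RPM in clones 1-1 and 2-2 and 506 and 560 RPM in clones 1-2 and 2-1. Cd63 at its leading TSS was lowest in clone 1-2, with 79.6 RPM, and between 124 and 140 RPM in the 3 others. The Cd9 TSS 80 bp downstream of the leading one had no read in control cells, 2.71, 1.77 and 0 RPM in cAMP, 2.6 and 2.26 RPM in parental and 0.0764, 0, 1.86 and 0.855 RPM in ΔSOX10 libraries.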
